A study of Mus musculus with 6 samples.

Results

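S100a8, S100a9, Retnlg, Csf3r, Lcn2, Saa3, Ngp and Il6 are genes that neutrophils and the acute-phase response are known for, and they were taken by name from the 46603 gene identifiers counted in each library. Sequencing covered RNA of abdominal visceral fat from untreated C57/Bl6 animals, 18 months old. There are 3 libraries of wild-type genotype (WT) and 3 of the knockout genotype NM1 KO, in which nuclear myosin 1, an isoform of the Myo1c gene, is the target. The strain, age, housing and depot are common to both genotypes. Replicates carry numbers, but no label ties each to its own animal, so the p-values describe scatter among libraries that could be technical. The labels name neither sex nor the kind of deletion nor the cells it affects. Of the 8 genes, 6 passed the filter on low counts and were tested, while Ngp and Il6 did not and are given by their values.

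Neutrophils are short-lived granulocytes that the bone marrow makes under the growth factor G-CSF and that enter tissue from blood along gradients of CXC chemokines. They carry granules of proteases and antimicrobial proteins, and their cytosol is rich in calprotectin, the complex of the S100a8 and S100a9 proteins. The acute-phase response is the output of secreted defence proteins, serum amyloid A and lipocalin-2 among them, that interleukin-1, interleukin-6 and related cytokines induce in liver and, for several of these proteins, in fat, macrophages and epithelia as well.

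Myo1c, counted over the whole gene, lay between 759 and 801 CPM in WT and between 452 and 697 CPM in NM1 KO, and these counts do not separate the nuclear isoform from the rest, so they do not check the genotype labels. Total counts lay between 24677758 and 33537818 per library. The mitochondrial share lay between 1.30% and 2.63%, and the share of ribosomal protein genes between 1.64% and 1.92%. WT replicate 2 (31228723 counts, 2.28% mitochondrial, 1.92% ribosomal protein) held the highest ribosomal protein share and lay within the range of the others in the other 2 measures. Adipocyte genes, which check the labelled tissue, were abundant in every library: Fabp4, the fatty acid carrier of fat cells, lay between 7658 and 9993 CPM (counts per 1000000 counts, with library sizes scaled by TMM), and Cidec, a lipid droplet protein, between 2758 and 3932 CPM.

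WT replicate 2 stood apart from the other 5 libraries in these genes. Of the 6 tested genes, 5 were at least 2-fold higher there than in every other library, namely S100a9, Retnlg, Csf3r, Lcn2 and Saa3. Across all 15828 tested genes this was so for 0.689% in WT replicate 2, and the share in the other libraries ranged from 0.0948% in NM1 KO replicate 2 to 1.95% in NM1 KO replicate 1. The highest of the 6 libraries was WT replicate 2 for 20.5% of all tested genes, within a span from 9.81% for NM1 KO replicate 3 to 24.7% for NM1 KO replicate 1. S100a8 was the exception among the tested genes, with its highest level in NM1 KO replicate 1. The genes were listed with the difference between the WT libraries already known, so the count describes these libraries and tests nothing. In bulk tissue, fewer cells of a type and less RNA per cell cannot be told apart.

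**Figure D1:**
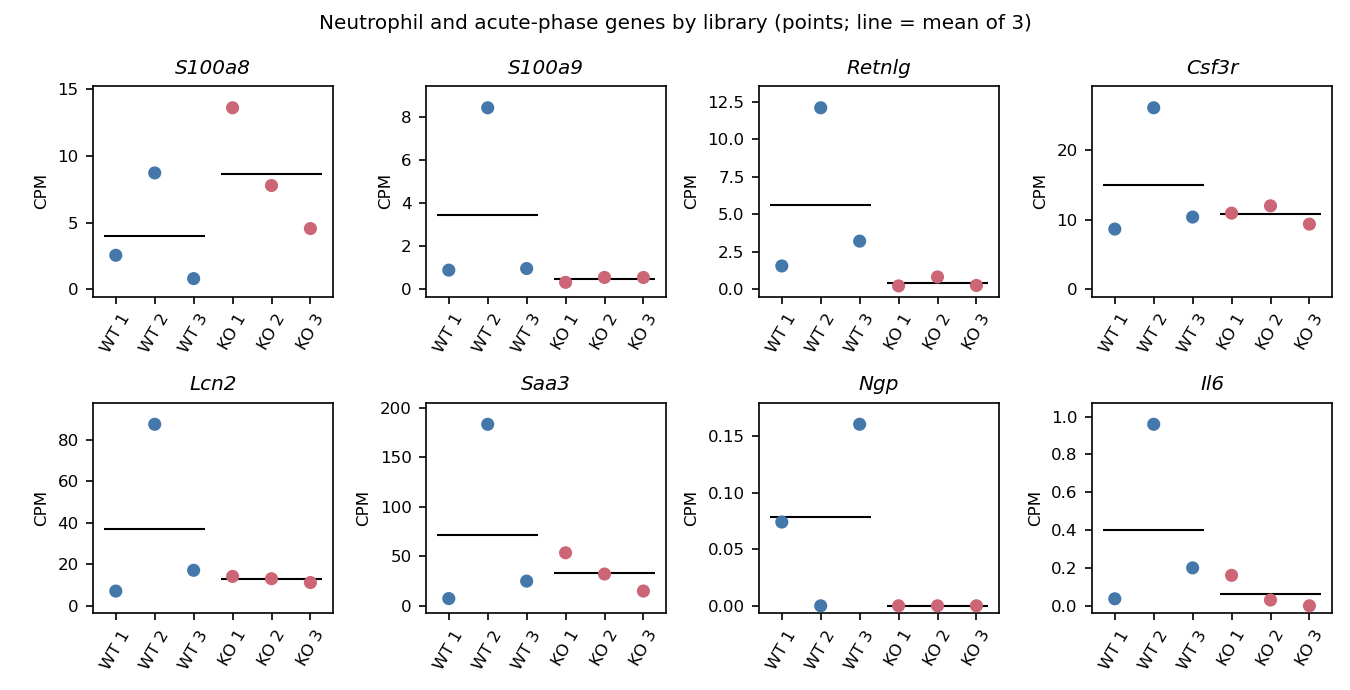
Each panel plots 1 gene, with the 3 WT libraries in blue and the 3 NM1 KO libraries in red, the level in CPM on a linear axis of its own, and a black line at the mean of each group of 3. WT replicate 2 holds the highest point for S100a9, Retnlg, Csf3r, Lcn2, Saa3 and Il6, while S100a8 reaches 13.6 CPM in NM1 KO replicate 1 and 8.73 CPM in WT replicate 2.

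No tested gene of the 8 was called between the genotypes. With edgeR's quasi-likelihood test and a threshold of 0.05 on the Benjamini-Hochberg adjusted p over all genes tested, 0 of 6 passed, where 4.25% of all genes tested were called, 2.79% higher and 1.47% lower. At an unadjusted p under 0.05 there were 2, S100a9 and Retnlg, both lower in NM1 KO, beside 23.7% of all genes tested in either direction and 10.8% lower. DESeq2 called the same 2 and 14.1% of all genes tested, and limma-voom called 0 of the 6 and 10.4% of all genes tested. Without WT replicate 2, edgeR passed 0 of 6 as well, and called 0.0247% of all genes tested. At an unadjusted p under 0.05 there were then 2 of 6 (S100a8 and Retnlg), beside 20.1% of all genes tested. The CPM ranges of the genotypes did not overlap for 2 of the 6, again S100a9 and Retnlg, both lower in NM1 KO. Over all tested genes 29.9% had no overlap, and 15.0% were lower in NM1 KO without it.

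The name of the group was checked against listed markers of neutrophil granules, maturation and surface. Ly6g, the surface antigen that marks mouse neutrophils, had 4 counts in WT replicate 1 and 0 in the other 5 libraries. Camp, Ltf, Mmp8 and Mpo, which encode granule proteins, had at most 7 counts in any library. Cxcr2, the chemokine receptor that draws neutrophils into tissue, had 179 counts (5.72 CPM) in WT replicate 2 and between 0 and 4 counts elsewhere. Other listed markers were well above 0: Prtn3, proteinase 3, had 115 to 1364 counts, Padi4, the histone-modifying deiminase of neutrophil traps, had 204 to 977, and Mmp9 had 251 to 1609. Elane, neutrophil elastase, had 13 to 49 counts, and Cd177 5 to 127. The listed markers thus ranged from near 0 to well above it, and the genes are called neutrophil and acute-phase genes here without naming cells. Mmp9 was named because it was called between the genotypes. Cd177 was named because its pattern lay nearest to the mean of S100a8 and S100a9, so it is no independent check of the name. The other marker genes of this paragraph were named after their values were seen. Counts of Ly6g are uncertain, since it has close relatives in the Ly6 family.

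Upstream sequence is printed for S100a9 and Retnlg, the tested genes whose ranges lay lower in NM1 KO without overlap. Each is the 250 bases before the RefSeq start (GRCm38.p6). Capitals mark any match, on either strand, to 4 motifs: the kappaB motif bound by NF-kappaB (GGGA, then any 4 bases, then CC), the C/EBP motif TTNNGCAA, the STAT motif TTCNNNGAA and the TATA box TATAAA. The S100a9 window is chr3:90695722-90695971 on the minus strand, and the Retnlg window is chr16:48872358-48872607 on the plus strand.
S100a9: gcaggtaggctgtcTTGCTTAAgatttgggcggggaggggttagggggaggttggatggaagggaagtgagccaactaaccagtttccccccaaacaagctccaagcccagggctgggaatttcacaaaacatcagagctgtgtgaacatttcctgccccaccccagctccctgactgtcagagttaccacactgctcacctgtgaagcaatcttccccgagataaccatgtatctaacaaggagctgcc
Retnlg: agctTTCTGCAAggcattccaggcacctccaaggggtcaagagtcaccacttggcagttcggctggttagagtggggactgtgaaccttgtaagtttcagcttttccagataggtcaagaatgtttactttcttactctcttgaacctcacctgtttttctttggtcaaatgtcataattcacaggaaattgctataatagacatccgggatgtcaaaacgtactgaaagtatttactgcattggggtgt
Both windows held 1 C/EBP match, at positions -236 to -229 from the start in S100a9, on the opposite strand, and -246 to -239 in Retnlg, and no match to the other 3 motifs. A C/EBP match lay in 9.56% of the 32851 RefSeq windows of this length. All 8 genes were matched in the RefSeq table, and 6 windows held a C/EBP match: those of S100a9, Retnlg, Lcn2, Saa3, Ngp and Il6. A kappaB match, found in 17.6% of all windows, lay in those of Csf3r and Il6, a TATAAA, found in 12.4%, in that of S100a8, and a STAT match, found in 7.02%, in 0 of the 8. Windows of S100a8, Csf3r, Lcn2, Saa3 and Ngp overlap exons of GENCODE M21 and are not printed. A match describes letters and is no evidence of binding.

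The pair S100a8 and S100a9 encodes the subunits of calprotectin, which binds calcium and withholds zinc and manganese from microbes. S100a8 (ENSMUSG00000056054, chromosome 3, 90668978 to 90670035 on GRCm38) and S100a9 (ENSMUSG00000056071, chromosome 3, 90692632 to 90695721) lie 22596 bases apart on opposite strands, and no other annotated gene overlaps either. S100a8 had 69, 273 and 20 counts in WT replicates 1 to 3, or 2.55, 8.73 and 0.801 CPM. In NM1 KO replicates 1 to 3 it had 423, 255 and 125 counts, or 13.6, 7.78 and 4.55 CPM. WT replicates 1 and 3 lay below all 3 NM1 KO libraries, and WT replicate 2 lay within their range. Group means were 4.03 ± 4.16 CPM in WT and 8.65 ± 4.59 CPM in NM1 KO (SD, n = 3). On the log2 scale, NM1 KO minus WT, the fold change was 1.09 ± 0.79 (SE) with an edgeR adjusted p of 0.443. Without WT replicate 2 it was 2.36 ± 0.67 with an edgeR adjusted p of 0.148.

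S100a9 took another course. The WT libraries held 24, 263 and 24 counts of it, in replicate order, or 0.887, 8.41 and 0.962 CPM. The NM1 KO libraries held 10, 18 and 15 counts, or 0.322, 0.549 and 0.547 CPM. Every NM1 KO library lay below every WT library, but WT replicate 2 stood 8.74-fold above the next library, and the gap between the remaining WT libraries and NM1 KO rests on few counts. The log2 fold change was -2.85 ± 0.96 with an edgeR adjusted p of 0.134, and -0.96 ± 0.46 without WT replicate 2 (edgeR adjusted p = 0.308). DESeq2 gave S100a9 an adjusted p of 0.0134 over the 6 libraries.

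The 2 subunit genes were thus of like level in WT and unlike level in NM1 KO. Levels between genes were compared as CPM per kilobase of annotated exon, with 694 bases for S100a8 and 522 for S100a9. On that scale the ratio of S100a8 to S100a9 was 2.16, 0.781 and 0.627 in WT replicates 1 to 3. In NM1 KO replicates 1 to 3 the ratio was 31.8, 10.7 and 6.27. The log2 ratio averaged 0.027 ± 0.95 in WT and 3.68 ± 1.2 in NM1 KO (SD, n = 3), a difference of 3.66. The groups did not overlap, which gives an exact two-sided permutation p of 0.1, the smallest that 3 libraries against 3 allow. It was 1 of 15 pairs among the 6 tested genes, of which 10 reached that smallest p, with an adjusted p over the 15 pairs of 0.15. The pair of S100a8 and Retnlg differed by more, with a difference in log2 ratio of 5.02. WT replicate 2 had a ratio between those of the other WT libraries, so the ratio did not set it apart as the levels did. The pair was singled out after its values were seen.

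**Figure D2:**
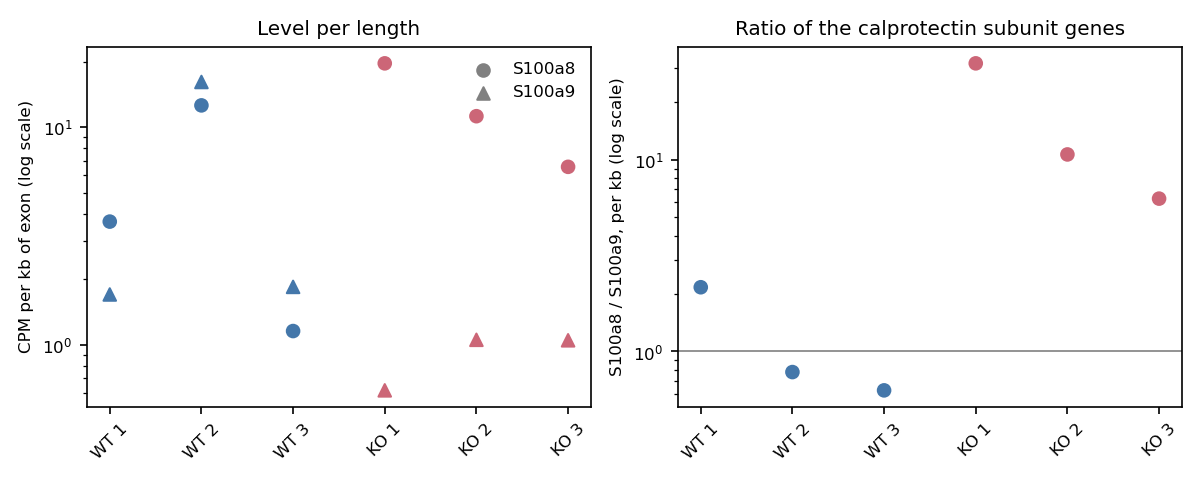
Left, the level of S100a8 (circles) and S100a9 (triangles) as CPM per kilobase of exon on a log axis, and right, the ratio of the pair on a log axis with a grey line at 1, for the 3 WT libraries (blue) and 3 NM1 KO libraries (red). The symbols lie close together in WT and far apart in NM1 KO, where the ratio runs from 6.27 to 31.8.

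Retnlg encodes a resistin-like secreted protein known from neutrophils and bone marrow, and Ngp a neutrophil granule protein of immature cells. Retnlg (ENSMUSG00000022651, chromosome 16, 48872621 to 48874496) had 42, 378 and 80 counts in WT replicates 1 to 3, or 1.55, 12.1 and 3.21 CPM. In NM1 KO replicates 1 to 3 it had 7, 27 and 7 counts, or 0.225, 0.824 and 0.255 CPM. All 3 NM1 KO libraries lay below all 3 WT libraries, also with WT replicate 2 left aside. Its log2 fold change was -3.67 ± 0.90, the largest in size among the 6 tested genes, with an edgeR adjusted p of 0.0685. Without WT replicate 2 it was -2.42 ± 0.68 (edgeR adjusted p = 0.140). DESeq2 called Retnlg over the 6 libraries (adjusted p = 0.000152), where limma-voom left it at an adjusted p of 0.0699. Retnlg passed the filter, which asks for about 10 counts in 3 libraries, through the WT libraries and NM1 KO replicate 2.

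Ngp (chromosome 9, 110419747 to 110423012) had 2, 0 and 4 counts in WT and 0 in all 3 NM1 KO libraries. A count of 0 allows up to 3 counts, which is between 0.0916 and 0.120 CPM in these libraries, so no difference in Ngp was detectable at this depth.

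Relatives of these genes were measured beside them. Retn, which encodes resistin, an adipokine of mouse fat cells, lay between 711 and 917 CPM in WT and between 177 and 509 CPM in NM1 KO. The ranges of Retn did not overlap, but it was not called (log2 -1.24 ± 0.35, edgeR adjusted p = 0.0937). Retnla, made by alternatively activated macrophages and fat, ranged from 523 to 1645 CPM in WT and from 67.2 to 555 CPM in NM1 KO (edgeR adjusted p = 0.284). S100a11, an S100 protein of wide expression, lay between 344 and 417 CPM in WT and between 353 and 414 CPM in NM1 KO. Of 10 tested relatives, edgeR called 0. Its p before adjustment was under 0.05 for 1 higher and 1 lower, beside 23.7% of all genes tested in either direction. The median log2 fold change of these relatives was -0.0082, beside -0.0021 over all genes tested.

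Csf3r encodes the receptor for G-CSF, the growth factor of the neutrophil lineage, and is found on neutrophils and monocytes. Csf3r (ENSMUSG00000028859, chromosome 4, 126024550 to 126044440) lay at 8.65, 26.1 and 10.4 CPM in the WT libraries, in replicate order, and at 10.9, 12.0 and 9.36 CPM in those of NM1 KO. WT replicate 2 lay 2.17-fold above the next library, and the other 5 libraries lay within 8.65 to 12.0 CPM. The log2 fold change was -0.48 ± 0.41 (edgeR adjusted p = 0.518), and 0.18 ± 0.20 without WT replicate 2 (edgeR adjusted p = 0.651), so its sign was that of 1 library. The ligand gene Csf3, named after its values were seen, had 28 counts in WT replicate 2 and at most 2 in any other library.

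Il6 encodes interleukin-6, the cytokine that drives much of the acute-phase response. Il6 (ENSMUSG00000025746, chromosome 5, 30013114 to 30019981) had 1, 30 and 5 counts in the WT libraries and 5, 1 and 0 counts in the NM1 KO libraries, each in replicate order. WT replicate 2 was the highest library, at 0.959 CPM, and the others held 5 counts or fewer. Il6 was too low to test with the filter. With no filter on low counts, edgeR gave it a log2 fold change of -2.56 ± 1.24 and an adjusted p of 0.344.

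Lcn2 encodes lipocalin-2, which binds bacterial iron carriers and is stored in neutrophil granules and secreted by fat cells and epithelia. Lcn2 (ENSMUSG00000026822, chromosome 2, 32384633 to 32388252) had 192, 2738 and 427 counts in WT replicates 1 to 3, or 7.10, 87.5 and 17.1 CPM. In NM1 KO replicates 1 to 3 it had 440, 428 and 308 counts, or 14.2, 13.1 and 11.2 CPM. All 3 NM1 KO libraries lay between WT replicate 1 and WT replicate 3, and WT replicate 2 lay 5.11-fold above the next library. The spread in WT (37.2 ± 43.8 CPM) was far wider than in NM1 KO (12.8 ± 1.48 CPM, SD, n = 3). The log2 fold change was -1.54 ± 0.81 (edgeR adjusted p = 0.298), and 0.084 ± 0.37 without WT replicate 2 (edgeR adjusted p = 0.921).

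Saa3 encodes serum amyloid A3, the member of its family that fat and macrophages make in mice. Saa3 (ENSMUSG00000040026, chromosome 7, 46711998 to 46715700) had 197, 5737 and 622 counts in WT replicates 1 to 3, or 7.28, 183 and 24.9 CPM. In NM1 KO replicates 1 to 3 it had 1664, 1052 and 409 counts, or 53.6, 32.1 and 14.9 CPM. WT replicate 1 was the lowest library and WT replicate 2 the highest, 3.42-fold above NM1 KO replicate 1, so the WT libraries enclosed all of NM1 KO. The log2 fold change was -1.10 ± 1.05 (edgeR adjusted p = 0.567). Without WT replicate 2 it was 1.06 ± 0.69 (edgeR adjusted p = 0.436), and limma-voom with sample weights gave 0.0028, so its direction was not settled by these data.

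**Figure D3:**
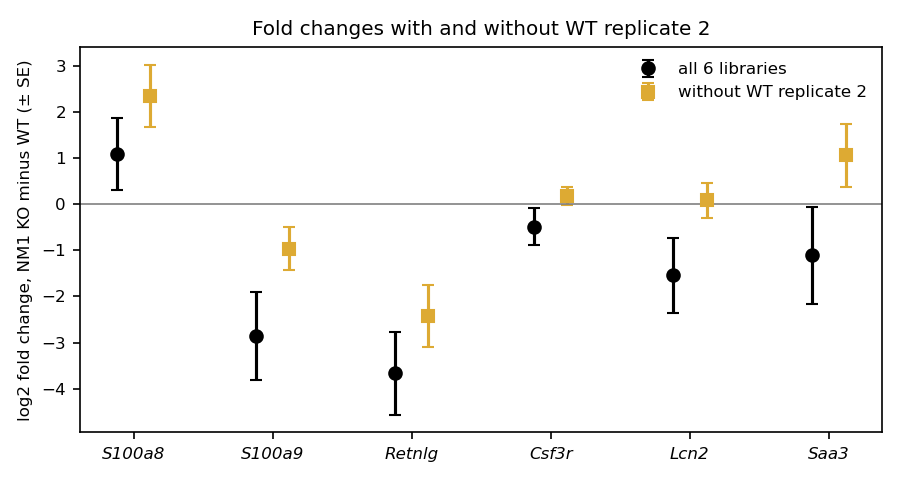
The log2 fold change, NM1 KO minus WT, with its SE, for the 6 tested genes, from all 6 libraries (black circles) and without WT replicate 2 (yellow squares), with a grey line at 0. Csf3r, Lcn2 and Saa3 move from below to above 0 when that library is left out, and S100a8, S100a9 and Retnlg keep their side.

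Per length of exon, the WT ranges of the 6 tested genes all overlapped (1.15 to 12.6 CPM per kilobase for S100a8 and 2.80 to 70.4 for Saa3, for example). Within each WT library, though, Saa3 lay above Lcn2, Lcn2 above Retnlg and Retnlg above S100a9. The first of these gaps were small in WT replicate 1, with Saa3 at 2.80, Lcn2 at 2.71 and Retnlg at 2.62 CPM per kilobase. S100a8 and Csf3r changed places among the WT libraries. In NM1 KO, Saa3 (5.72 to 20.5 CPM per kilobase) and S100a8 (6.56 to 19.6) overlapped at the top. Lcn2 (4.28 to 5.40) lay below both and above Csf3r (2.59 to 3.32) without overlap. S100a9 (0.617 to 1.05) and Retnlg (0.380 to 1.39) overlapped each other below Csf3r. The exon lengths are the union over isoforms, 2623 bases for Lcn2 and 2606 for Saa3, so genes with long rare isoforms are placed too low. The longest protein-coding transcript has 915 bases for Lcn2, 2200 for Saa3 and 486 for S100a8. The order of Lcn2 against Saa3 and S100a8 thus depends on the length used, in both genotypes.

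Other genes of neutrophils were counted from lists. Of 18 genes of neutrophil granules and maturation, 13 were tested. Of these, 2 were called higher and 1 lower, beside 2.79% higher and 1.47% lower among all genes tested. The median log2 fold change of the 13 was 0.30. That median was 0.62 without WT replicate 2 and 0.077 without NM1 KO replicate 1. Lyz2, lysozyme of macrophages and granulocytes, rose from a WT range of 892 to 1317 CPM to an NM1 KO range of 2102 to 3143 CPM (log2 1.13 ± 0.22, edgeR adjusted p = 0.0383). Cyba, a subunit of the phagocyte NADPH oxidase, rose by a log2 of 0.90 ± 0.18 (edgeR adjusted p = 0.0409), and Cybb, its partner, was not called (log2 1.48 ± 0.33, edgeR adjusted p = 0.0576). Mmp9, gelatinase B, fell from 37.4 to 64.5 CPM in WT to 8.08 to 16.9 CPM in NM1 KO (log2 -1.99 ± 0.31, edgeR adjusted p = 0.0270). Prtn3, proteinase 3, named after its value was seen, lay at 11.4, 26.3 and 54.7 CPM in WT and at 3.70, 8.76 and 5.06 CPM in NM1 KO (log2 -2.39 ± 0.59, edgeR adjusted p = 0.0683). Its highest library was WT replicate 3, not WT replicate 2.

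Of 18 neutrophil surface and mature markers, 11 were tested and 2 called higher, beside 2.79% of all genes tested. The median of the 11 was -0.16, and 0.70 without WT replicate 2. Clec4d, a C-type lectin receptor of myeloid cells, rose from 3.25 to 6.91 CPM in WT to 19.5 to 56.0 CPM in NM1 KO (log2 2.65 ± 0.48, edgeR adjusted p = 0.0342). Itgb2, the beta-2 integrin chain of all leukocytes, rose by a log2 of 1.03 ± 0.21 (edgeR adjusted p = 0.0431), while its partner Itgam was not called (log2 -0.16 ± 0.20, edgeR adjusted p = 0.668). Lyz2, Cyba, Clec4d and Itgb2 are expressed by macrophages too. The macrophage list moved with them, with 3 of 10 genes called higher (Adgre1, Cd68 and Trem2), beside 2.79% of all genes tested. Its summed level was 1962 to 2694 CPM in WT and 3202 to 3603 CPM in NM1 KO. The part of macrophages in these calls was not tested. Over all 16 lists beside the 8 genes, 13 of 163 tested genes were called, 9 higher and 4 lower. Among all genes tested 4.25% were called, 2.79% higher and 1.47% lower. The count for the lists was 0 without WT replicate 2, without WT replicate 3 or without NM1 KO replicate 3. Without WT replicate 2, 36 of 164 had an unadjusted p under 0.05, beside 20.1% of all genes tested. Over all genes, 673 calls became 4, 1 and 5 without those libraries.

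Some receptors and chemokines of neutrophil traffic were highest in WT replicate 2 and others were not. Of 9 tested granulocyte chemoattractants and growth factors, edgeR called 0 between the genotypes, where 4.25% of all genes tested were called. Of the 9, 4 were highest in WT replicate 2, beside 20.5% of all tested genes. In 2 of these, Cxcl1 and Il1b, it was by at least 2-fold, beside 0.689% of all tested genes. Cxcl1, a ligand of Cxcr2, lay at 26.4 CPM there and between 1.92 and 5.13 CPM elsewhere. Il1b, interleukin-1 beta, lay at 5.72 CPM there and between 0.444 and 1.31 CPM elsewhere. Among genes too low to test, Trem1, a receptor that amplifies granulocyte activation, had 98 counts in WT replicate 2 and at most 14 elsewhere, and Cxcl5, another Cxcr2 ligand, had 78 and at most 4. Cxcl2, another ligand of Cxcr2, lay at 1.18 CPM in WT replicate 2 and was highest in NM1 KO replicate 2, at 3.02 CPM. Ppbp, a platelet chemokine, lay at 1.05 CPM there and was highest in WT replicate 3, at 1.80 CPM. Cxcr1 had 2 counts and Cxcl3 had 1 count in WT replicate 2, and neither had more than 3 in any library. Cxcl12, an abundant chemokine of stromal cells, lay at 229 CPM in WT replicate 2 and at 170 to 195 CPM elsewhere. Genes of this paragraph other than Cxcl12 were named after their values were seen.

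**Figure D4:**
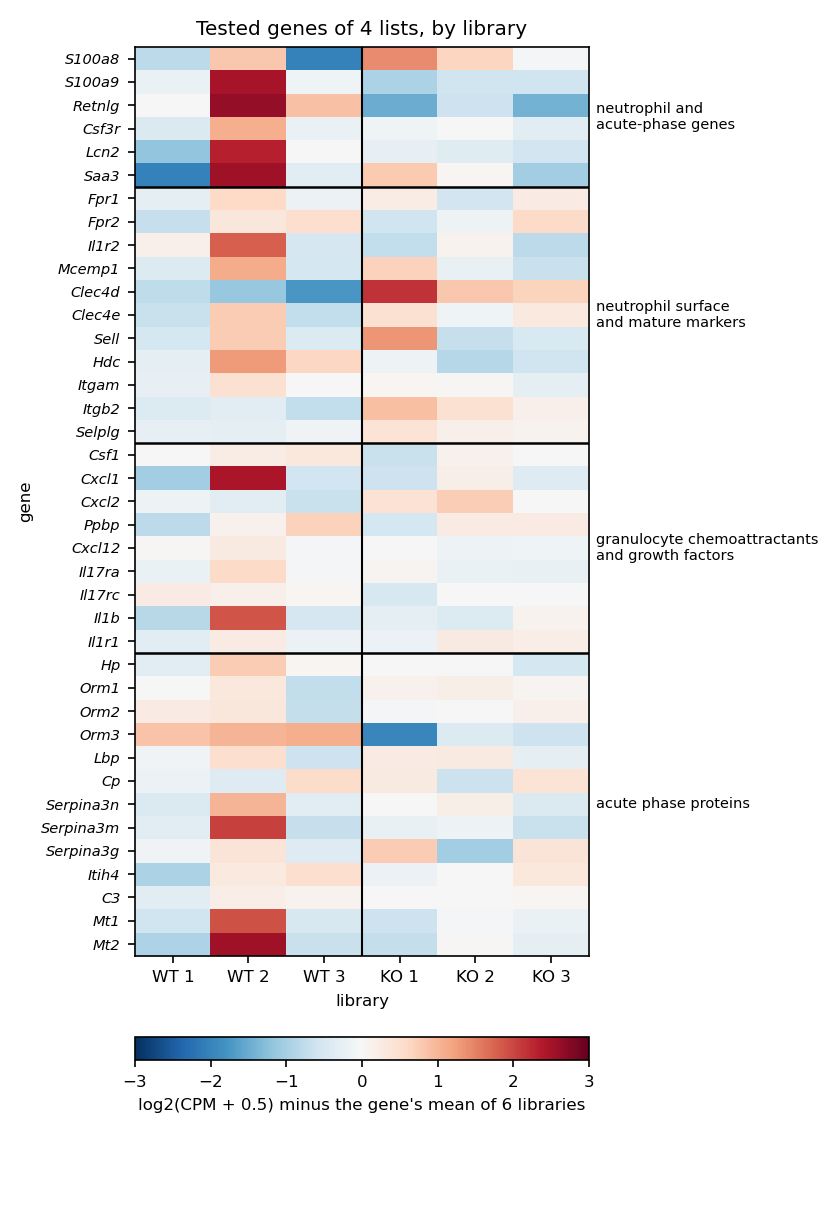
Rows are the tested genes of 4 lists and columns the 6 libraries, with colour for log2(CPM + 0.5) minus the gene's mean of 6 libraries, red above and blue below. The column of WT replicate 2 is the reddest for S100a9, Retnlg, Lcn2, Saa3, Cxcl1, Il1b, Mt1 and Mt2, while Clec4d and S100a8 are reddest in NM1 KO replicate 1. Cxcl1, Il1b, Mt1 and Mt2 were named after their values were seen.

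Of 21 listed acute-phase genes, 13 were tested and edgeR called 0. Before adjustment its p was under 0.05 for 1 (lower), beside 23.7% of all genes tested in either direction. Of the 13, 9 had their highest level in WT replicate 2, beside 20.5% of all tested genes. Hp, haptoglobin, which binds free hemoglobin and is abundant in fat, lay at 6397 CPM in WT replicate 2 and between 2628 and 3928 CPM elsewhere. Serpina3n, a serine protease inhibitor, lay at 926 CPM there and between 335 and 515 CPM elsewhere, while C3, the central complement protein, at 5804 CPM, was close to WT replicate 3 at 5435 CPM. Mt2, a metallothionein, named after its value was seen, lay at 676 CPM there and between 61.2 and 119 CPM elsewhere. Saa1 and Saa2, close relatives of Saa3 whose counts are uncertain because their sequences are alike, had 22 and 19 counts in WT replicate 2 and at most 4 elsewhere, and were named after their values were seen. The list's median log2 fold change was -0.025, -0.43 without WT replicate 1 and 0.24 without WT replicate 2, with 6 of 13 genes changing sign.

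Of 17 tested signalling genes of the interleukin-6 family, 1 was called higher, where 4.25% of all genes tested were called in either direction, and the median was -0.17. That gene, Jak1, a kinase of cytokine receptors, rose from 197 to 202 CPM in WT to 286 to 327 CPM in NM1 KO (log2 0.66 ± 0.10, edgeR adjusted p = 0.0257). Il6st, the shared receptor chain gp130, lay between 443 and 505 CPM in WT and 364 and 436 CPM in NM1 KO (edgeR adjusted p = 0.374). Socs3, the feedback inhibitor that STAT3 induces, named after its value was seen, lay at 149 CPM in WT replicate 2 and between 23.9 and 30.6 CPM in the other 5 libraries. Among 11 transcription factors and regulators of the C/EBP, STAT3 and NF-kappaB pathways, edgeR called 0. Its p before adjustment was under 0.05 for 1 higher and 2 lower, beside 23.7% of all genes tested in either direction. Of the 11, 7 were highest in WT replicate 2, beside 20.5% of all tested genes. In 1 of them, Bcl3, it was by at least 2-fold, beside 0.689% of all tested genes. Bcl3, named after its value was seen, lay at 52.9 CPM there and at 15.1 to 23.4 CPM elsewhere. Cebpa (1166 CPM in WT replicate 2, 1046 to 1479 CPM elsewhere) and Rela (128 CPM, and 95.4 to 125 CPM elsewhere) were not raised there by 2-fold. Of 8 receptors of the S100 proteins and lipocalin-2 and their adaptors, edgeR called 0. Before adjustment its p was under 0.05 for 2, both higher, beside the same 23.7% of all genes tested in either direction. Lrp2, an uptake receptor for lipocalin-2, lay between 8.87 and 24.6 CPM in WT and between 42.8 and 53.4 CPM in NM1 KO (log2 1.46 ± 0.34, edgeR adjusted p = 0.0598).

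Markers of other cell types were set beside the 8 genes by library, and their part in the levels of WT replicate 2 was not tested. The summed monocyte list lay at 651 CPM in WT replicate 2 and between 757 and 967 CPM elsewhere, a sum led by F13a1 and Ace, while Ccr2, the receptor of inflammatory monocytes, was highest there (87.9 CPM, and 40.2 to 72.1 CPM elsewhere). The median log2 deviation of monocyte genes from their mean of 6 libraries was 0.66 in WT replicate 2 and lay between -0.46 and 0.20 elsewhere. The summed mesothelium list was highest in WT replicate 2 (1378 CPM), with WT replicate 3 at 1282 CPM and the other libraries between 641 and 917 CPM. The mesothelial gene Krt19 lay at 223 CPM there and between 27.9 and 109 CPM elsewhere. Summed macrophage genes were lowest there, at 1962 CPM. Red cell and platelet genes, which bear on blood in the sample, summed to 1144 CPM there and to 1060 and 1191 CPM in the other WT libraries, so their level in WT replicate 2 was within the WT range, while in NM1 KO they summed to between 517 and 954 CPM. Lymphocyte genes summed to 81.4 CPM there, below NM1 KO replicate 1 at 206 CPM. Eosinophil, basophil and mast cell genes summed to 227 CPM there and to between 197 and 319 CPM elsewhere, with Epx, the eosinophil peroxidase, named after its value was seen, at 0 in all libraries. Vascular endothelium summed to 718 CPM there and between 621 and 788 CPM in the other WT libraries, and adipocyte genes to 24195 CPM there and between 20716 and 24953 CPM elsewhere.

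**Figure D5:**
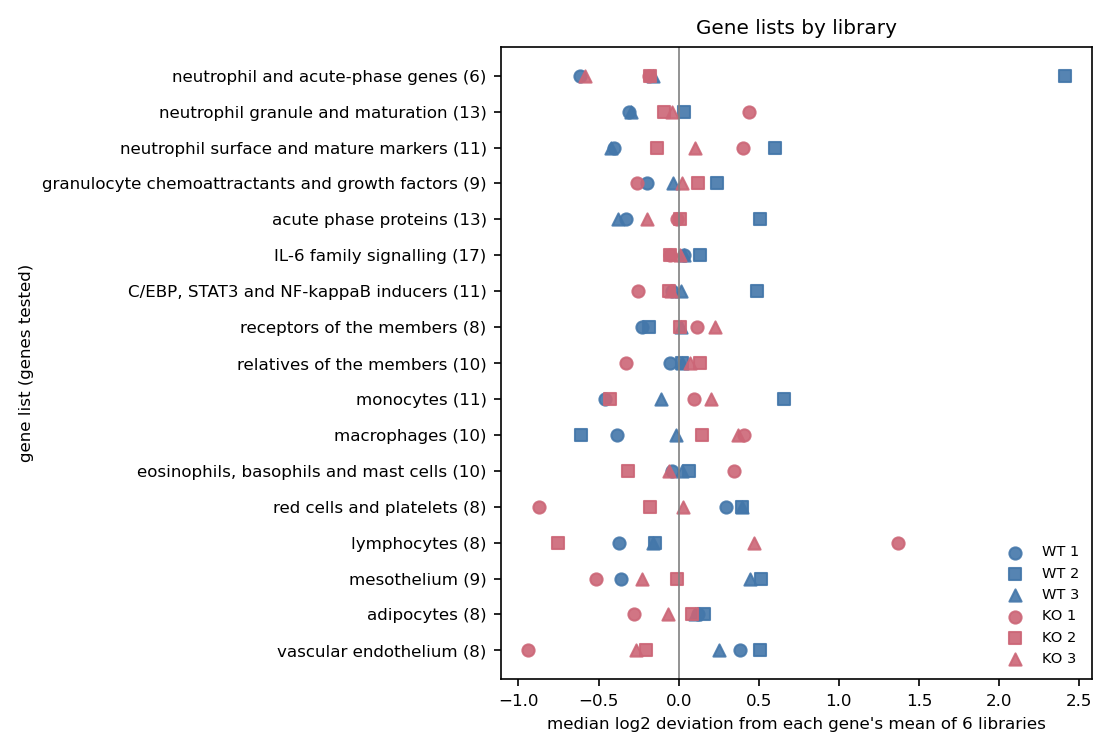
Each row is a gene list with its number of tested genes, and each symbol the list's median log2 deviation, from each gene's mean of 6 libraries, in 1 library (WT blue, NM1 KO red, with circle, square and triangle for replicates 1 to 3). The 8 genes, of which 6 were tested, reach 2.41 in WT replicate 2, where monocyte genes reach 0.66, neutrophil surface markers 0.60 and acute phase genes 0.51. Mesothelium and vascular endothelium also reach 0.51 there, and the C/EBP, STAT3 and NF-kappaB list 0.49. Neutrophil granule and maturation genes lie at 0.032 there.

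Likeness of pattern was measured against 12890 named genes averaging 1 CPM or more, by the root mean square difference of centred log2(CPM + 0.5) over the 6 libraries. Nearest to the mean pattern of S100a8 and S100a9 were Cd177 (0.19), Sirpb1c (0.22), Casq1 (0.24), Adamts4 (0.27) and Chil3 (0.29). That mean joins unlike profiles: in NM1 KO replicate 1 S100a8 was at its highest (13.6 CPM) and S100a9 at its lowest (0.322 CPM). Likeness to the mean is thus not likeness to either gene. Cd177 is a neutrophil surface glycoprotein and Chil3 a chitinase-like protein of neutrophils and activated macrophages, while Casq1 is the calsequestrin of skeletal muscle and Adamts4 a protease of the matrix. Cd177 had 11, 127 and 5 counts in the WT libraries, in replicate order, and 40, 18 and 13 counts in those of NM1 KO. WT replicate 2 lay first and NM1 KO replicate 1 next, as in the mean pattern by which Cd177 was chosen. Nearest to Saa3 were Arg1 (0.36), Serpinb2 (0.41), Igkv8-28 (0.53), Ighv14-2 (0.54) and Igkv1-135 (0.55). Arg1, the arginase of activated macrophages, had 749 counts in WT replicate 2 and between 27 and 180 in the other libraries. The last 3 are variable segments of antibody genes, whose counts are uncertain because the segments resemble each other. All these patterns share the same 6 libraries, and most rest on the height of WT replicate 2.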

How the data were processed

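Per the submitters' processing notes, HTSeq, HISAT2 2.0.4 and Trimmomatic 0.36 were used, with SAMtools 0.1.19 and FastQC, on GRCm38 (mm10). The annotation, tool settings and strand handling are not stated there. The authors deposited raw whole-number counts per Ensembl gene for each library. Of 46603 identifiers, 46091 matched GENCODE M21 and 0 rows named no gene. The labelled genotype set the groups.

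The test was edgeR 4.0.16's, run in R 4.3.3 (filterByExpr, TMM, robust quasi-likelihood fit, genotype only, two-sided, Benjamini-Hochberg adjustment over 15828 genes, threshold 0.05). Each SE was derived from the fold change and its F statistic. The test was checked on simulated counts. Total counts of 24677758 to 33537818 put 3 counts at 0.0916 to 0.120 CPM. No 2 libraries of the same genotype agreed within sampling noise (chi-square per degree of freedom at least 35.9). Exonic windows of 50 bases shared with other genes numbered 385 of 3432 in Csf3r, 84 of 2151 in Saa3 and 0 in the other 6 genes.

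The 8 genes and the 16 lists were chosen with earlier results of these data known. Named genes are the 8, every called gene and the 3 of highest mean CPM per list, and the 5 nearest patterns, with not all printed and additions marked. Lcn1 and Muc16 had no row. Alternatives were RLE, upper-quartile and no scaling, 2 other filters, non-robust dispersion, a replicate block, DESeq2 1.42.0, limma-voom (limma 3.58.1) and leaving out each library. Figures used matplotlib 3.10.9.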

Additional observations from a re-analysis of the deposited data

How the results depend on the processing

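The count of called genes among the 6 tested was 0 with edgeR under RLE, upper-quartile or no scaling and non-robust dispersion, and 0 with limma-voom. It was 2 with DESeq2 (S100a9 and Retnlg) and 1 with the replicate block (Retnlg, log2 -3.48, edgeR adjusted p = 0.0357). It was also 0 under either other filter and in every fit that left out 1 library. S100a9 did not pass the filter of 1 CPM in 3 libraries, so it could not be called there. With no filter on low counts, Ngp and Il6 were tested as well and were not called. The labels do not state whether replicate numbers pair libraries across genotypes. Deviations of same-numbered libraries correlated by -0.039, -0.014 and 0.24, and only replicate 3 correlated best with its own number. With 3 libraries per genotype, these correlations cannot decide whether the libraries are paired. The count over all genes was 673, and 336 with the replicate block, 2239 with DESeq2, 1648 with limma-voom and 1 to 1654 when 1 library was left out. For the other listed genes it was 13, and 8 with the replicate block, 38 with DESeq2, 23 with limma-voom and 0 to 25 when 1 library was left out. The sign turned for Csf3r (0.18), Lcn2 (0.084) and Saa3 (1.06) without WT replicate 2 and for Saa3 (0.0028) with limma-voom, and the cause was not tested. Leaving out 1 library gave ranges of -0.76 to 0.18 for Csf3r, -2.03 to 0.084 for Lcn2 and -1.64 to 1.06 for Saa3. S100a8, S100a9 and Retnlg kept their sign in every alternative run for them, S100a8 from 0.61 to 2.36, S100a9 from -3.30 to -0.96 and Retnlg from -4.53 to -2.42. Low counts limit S100a9, Retnlg, Ngp and Il6.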
